A study of Homo sapiens with 5 samples.

Results

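The cytosolic ribosomal protein genes encode the proteins of the large (RPL and RPLP) and small (RPS) subunits of the ribosome that translates messenger RNA in the cytoplasm. They were chosen by symbol alone, as genes of the exon count table named RPL or RPS and a number, with or without a final A or X, or RPLP0, RPLP1 or RPLP2. This gave 76 genes of 23340 in the exon table, 46 of the large and 30 of the small subunit, and each was paired by symbol with its row among the 22009 genes of the intron table. Ribosomal proteins whose symbols have another form, such as RPSA and FAU, fall outside this rule and are described at the end.

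The libraries were made from A549, an established human lung carcinoma epithelial line, after transfection with Lipofectamine. There were 5 groups of 1 library each. The mock group received the transfection reagent alone for 16 h, a pair of groups received a control oligo at 50 nM, harvested at 9 h or at 16 h, and another pair received the 23N randomer oligo at the same dose and times. All groups share the reagent and the growth medium; the chemistry and sequence of the oligos were not given in the sources used here. Total RNA depleted of ribosomal RNA was sequenced, so unspliced RNA was read along with messenger RNA, and reads over exons and over introns were counted separately per gene. Each group being a single library, values at 1 time have no replicates, and the labels leave unsaid whether the cells of each time were a culture of their own, so p-values measure only the spread between these libraries, which may be technical.

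Ribosomal protein messenger RNAs are among the most abundant in growing cells, and their genes are transcribed in step so that the subunits assemble in balance. Most begin with a C followed by an unbroken run of pyrimidines at the 5′ end, the terminal oligopyrimidine motif through which growth signals acting on mTOR and LARP1 control their translation and stability. Many of the genes also carry small nucleolar RNAs (snoRNAs) in their introns. These are released from the excised intron, survive when the rest of it is degraded, and guide methylation (C/D box type) or pseudouridylation (H/ACA box type) of ribosomal RNA.

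The starts of 7 genes that changed in exon counts, those with exactly 1 start in the RefSeq table used, are shown for comparison with this motif. Each window holds 30 bases before and 20 bases from the transcription start in RefSeq (GRCh38.p14), and capitals mark the unbroken run of C and T that holds the first transcribed base.
RPL13A: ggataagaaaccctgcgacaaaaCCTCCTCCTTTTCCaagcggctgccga
RPL3: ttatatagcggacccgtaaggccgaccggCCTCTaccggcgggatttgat
RPLP0: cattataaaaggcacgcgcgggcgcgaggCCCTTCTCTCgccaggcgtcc
RPS12: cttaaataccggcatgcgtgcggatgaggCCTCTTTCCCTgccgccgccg
RPS16: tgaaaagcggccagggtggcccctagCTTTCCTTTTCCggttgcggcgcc
RPS25: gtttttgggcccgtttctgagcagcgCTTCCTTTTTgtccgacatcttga
RPL28: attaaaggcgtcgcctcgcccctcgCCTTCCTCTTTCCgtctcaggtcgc
RPL13A lies at chr19:49487578-49487627 and RPL28 at chr19:55385902-55385951, both on the plus strand. RPL3 lies at chr22:39319604-39319653, RPLP0 at chr12:120201092-120201141, RPS16 at chr19:39435930-39435979 and RPS25 at chr11:119018324-119018373 on the minus strand, and RPS12 lies at chr6:132814539-132814588 on the plus strand. The first 6 of these genes fell and RPL28 rose, and the windows of both kinds hold such a run. In RPL3 only 4 of the 5 bases of the run lie from the start on, short of the 5 pyrimidines required below.

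RefSeq starts were found for 61 of the 76 genes. Of these, 45 (73.8%) had a start at C with at least 5 pyrimidines in a row, against 1404 of 27305 genes with a RefSeq start (5.14%). The letters CTCTTT, searched on the gene's strand, occurred in the 50-base window of 18 members (29.5%) and in 2.57% of all genes, and their reverse complement AAAGAG in 2 members (3.28%) and 2.3% of all genes. Among members with the start run, 6 of the 43 tested fell and 1 rose in exon counts, with a median fitted log2 change of -0.12. Among members whose RefSeq start lacked it, 3 of 15 fell (median -0.45), and among those with no entry, 3 of 13 fell (median -0.60). Of all genes tested 3.16% fell and 6.9% rose. These groups of members were not matched for depth, and the difference between them was not tested. A match is a description of the letters and not a site shown to act here.

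Exon counts over all genes summed to between 1476223 and 2629053 per library and intron counts to between 603142 and 1947593. RN45S, the ribosomal RNA precursor that depletion left behind, took 6.78% to 16.4% of exon counts, with the highest share in the randomer library at 16 h. The lung epithelial identity was checked against 8 markers. KRT8, KRT18, ALDH1A1 and AKR1B10 had at least 242 counts in every library. CDH1 had only 14 to 24 counts and AKR1C1 5 to 55, while KRT19 and EPCAM were at 0 in the mock and control oligo libraries. KRT18 and ALDH1A1 fell 1.74-fold and 1.67-fold by edgeR. Of 4 fibroblast markers COL1A1 had 115 to 504 counts, DCN had 6 in 1 library and COL1A2 and PDGFRB were at 0. Of the leukocyte markers, PTPRC and CD3E were at 0 in every library, but CD14 had 0 counts in the mock and control oligo libraries and 17 and 4 after randomer. Of 3 endothelial markers the sum was 0 in the same libraries and 58 and 81 after randomer, mostly VWF. The part of these in the results below was not tested. In bulk RNA, fewer cells of a type and less RNA per cell cannot be told apart.

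The members together held 1.28% of exon counts in mock cells (95% exact binomial interval 1.27 to 1.30), 1.42% (9 h) and 1.53% (16 h) after control oligo, and 1.30% and 0.935% (0.920 to 0.951) after randomer. The randomer library at 16 h held the lowest share, and at 9 h the randomer share lay between mock and control oligo. With RN45S left out of the totals the shares were 1.45%, 1.52%, 1.65%, 1.42% and 1.12% in the same order. Of intron counts the members held 1.71%, 1.80%, 1.75%, 1.08% and 0.705%, so that both randomer libraries lay below the other 3. Intervals cover counting error only, since PCR copies are not independent molecules.

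Levels differed widely between members. Per kilobase of a reference transcript, with counts scaled by TMM library sizes (CPM) and averaged over the control oligo libraries, RPL5 stood highest at 1121, followed by RPS3 at 1005, RPS14 at 771, RPS19 at 758 and RPS6 at 693. RPL5 binds the 5S ribosomal RNA, RPS3 lies at the entry of the messenger RNA channel, and RPS6 is the substrate of the S6 kinases. RPL21 and RPS18 had 0 counts in both tables in all libraries, and RPS28 had 1 exon count, in the randomer library at 16 h. RPL21, RPS18 and RPS28 have 66, 5 and 3 annotated pseudogenes named after them, and the authors' treatment of reads with several positions was not given in the sources used here. Across the 76 genes the level per kilobase had a Spearman rho of -0.16 with the number of annotated pseudogenes named after the gene, a description over genes that share the libraries. Transcript lengths come from GENCODE 29, and those of RPL37, RPL27A, RPL37A and RPS23 are the longest among the members, which lowers their values on this scale.

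Randomer was compared with control oligo in exon counts to ask how ribosomal protein messenger RNA changed. Among the members that passed the test 12 fell, by 1.63-fold to 2.22-fold, and 1 rose, RPL28, and the members' median log2 ratio was lower at 16 h than at 9 h. A gene needed at least 10 counts in at least 2 libraries, which 71 of the 76 members met; RPL21, RPS18 and RPS28 were among those that did not. By edgeR's quasi-likelihood test over the 4 oligo libraries, with time as a term and a Benjamini-Hochberg adjusted p under 0.05 over all 11407 genes, 12 of 71 members fell (16.9%), against 3.16% of all genes tested. In the other direction 1 member rose (1.41%), against 6.9% of all genes. Depth bears on this comparison: among genes averaging 100 counts or more, 12 of 53 members fell (22.6%) and 7.74% of all 4251 genes, and 1 member rose against 6.52%.

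**Figure D1:**
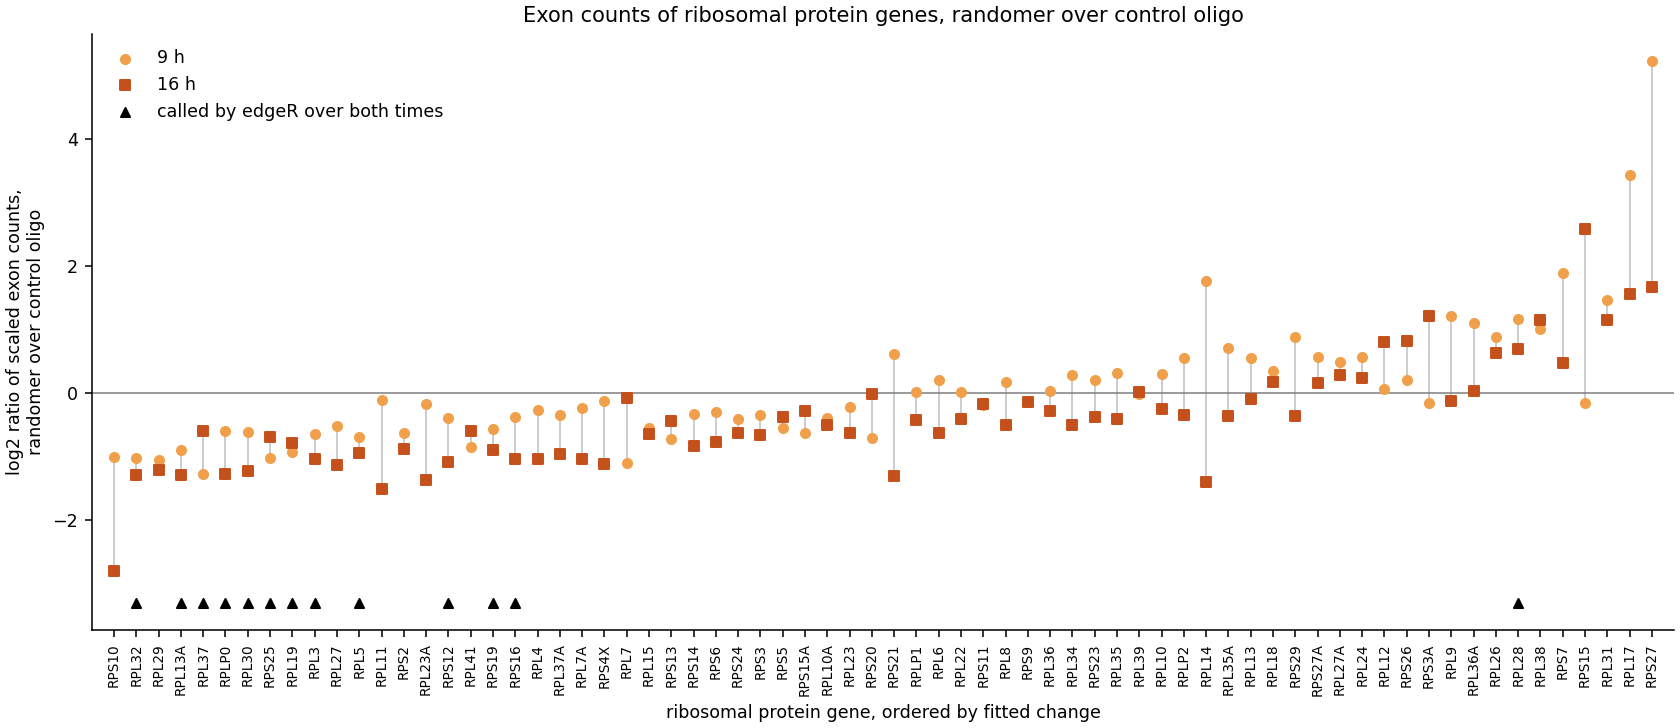
Log2 ratio of scaled exon counts, randomer over control oligo (0.5 added to each count), at 9 h (circles) and 16 h (squares) for 70 of the 71 members tested, 1 library per point, ordered by the fitted change over both times. Triangles mark members called by edgeR, which are 12 toward the left, all below 0 at both times, and RPL28 toward the right.

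The median log2 ratio of the 71 members was -0.16 at 9 h and -0.50 at 16 h, while that of all genes tested was 0.05 and 0.07. Depth bears on these medians too. Among genes averaging 100 counts or more they were -0.272 and -0.603 for 53 members, and -0.135 and -0.188 for all 4251 genes. At 9 h 41 members lay below 0 (57.7%, against 47.7% of all genes) and at 16 h 54 did (76.1%, against 47.7%). The spread among members was wide, from -1.28 to 5.23 at 9 h and from -2.80 to 2.58 at 16 h, with RPL37, at a mean of 254 exon counts, the lowest at 9 h. The other extremes were RPS27, RPS10 and RPS15, with means of 10.8, 10.2 and 15.4 counts. In 26 members both randomer libraries lay below the other 3 libraries (36.6%), which 18.0% of all genes tested did, and in 10 both lay above (14.1%), against 22.5%.

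RPL13A, a large-subunit protein known from human monocytes also as part of the GAIT complex, had the smallest p-value. Its scaled exon CPM were 692 in mock cells, 635 (9 h) and 700 (16 h) after control oligo, and 343 and 285 after randomer. Values below follow this order of libraries. Both randomer libraries lay below the other 3. The fitted change was a 2.13-fold fall (log2 -1.09 ± 0.22 SE, edgeR adjusted p = 0.000104). RPL5, which with RPL11 and the 5S ribosomal RNA can bind the p53 regulator MDM2, had 1365 CPM in mock cells, 1098 and 1208 after control oligo, and 682 and 628 after randomer. Its groups did not overlap either, and it fell 1.76-fold (log2 -0.81 ± 0.19 SE, edgeR adjusted p = 0.0015). The calls of RPL13A and RPL5 were kept in all 8 alternative settings.

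RPL32 had the largest called fall, 2.22-fold (log2 -1.15 ± 0.33 SE, edgeR adjusted p = 0.012), from 148 and 133 CPM after control oligo to 72.8 and 54.4 after randomer. Mock cells, however, stood at 65.1, between the randomer libraries, and the call was lost with mock added as a control (adjusted p = 0.1). RPL3, which lies close to the peptidyl transferase centre, had 375 CPM in mock cells, 523 and 530 after control oligo and 336 and 257 after randomer. Its groups did not overlap, and it fell 1.79-fold (edgeR adjusted p = 0.00652). RPLP0, the base of the stalk that recruits elongation factors, had 285, 335, 360, 222 and 148 CPM in the same order and fell 1.90-fold (edgeR adjusted p = 0.00671). Its partners at the stalk, RPLP1 and RPLP2, had fitted log2 changes of -0.20 and 0.11 (edgeR adjusted p = 0.682 and 0.889). RPLP1 had 529 CPM in mock cells, 395 and 561 after control oligo and 401 and 417 after randomer, and RPLP2 had 133, 132, 179, 194 and 141 in the same order. For both the groups overlapped.

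RPL30, a large-subunit protein, fell from 220 and 229 CPM to 144 and 98.1 (1.88-fold), with mock at 208. RPL37 fell from 159 and 136 to 65.5 and 89.0 (1.92-fold), with mock at 127, and RPL19 from 202 and 209 to 106 and 121 (1.81-fold), with mock at 137. In these 3 large-subunit genes the randomer libraries lay below the others. Of the small subunit, RPS25, needed in human cells for initiation at several viral internal entry sites, fell from 231 and 199 to 113 and 124 (1.81-fold), with mock at 215. RPS19, the gene most often mutated in Diamond-Blackfan anaemia, fell from 385 and 413 to 260 and 222 (1.66-fold), with mock at 494. RPS16 had 316 in mock cells, 348 and 427 after control oligo and 269 and 207 after randomer, with no overlap, and fell 1.63-fold. RPS12, inside whose gene snoRNAs lie, fell 1.66-fold. RPS12 stood at 296 in mock cells, 389 and 374 after control oligo and 298 and 175 after randomer, so its mock and 9 h randomer values overlapped. The edgeR adjusted p of these 7 genes lay between 0.0191 and 0.0432. Without the time term 2 of the 12 falls remained called, and with all counts divided by 8, as if each molecule had been read 8 times, 3 did.

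RPL28, a large-subunit protein, was the only member that rose by edgeR. Its scaled exon CPM were 154 in mock cells, 158 and 148 after control oligo, and 356 and 239 after randomer. Both randomer libraries lay above the other 3, and the fitted change was 1.91-fold (log2 0.93 ± 0.26 SE, edgeR adjusted p = 0.00808). The call was lost without the time term (adjusted p = 0.056). UBE2S lies on the opposite strand over RPL28 in the annotation, and without a statement of strand in the counting the reads of both cannot be told apart. In all, 35 of the 76 members overlap another coding gene. Of the 32 of these tested 4 fell, against 8 of 39 of the others and 3.16% of all genes tested.

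**Figure D2:**
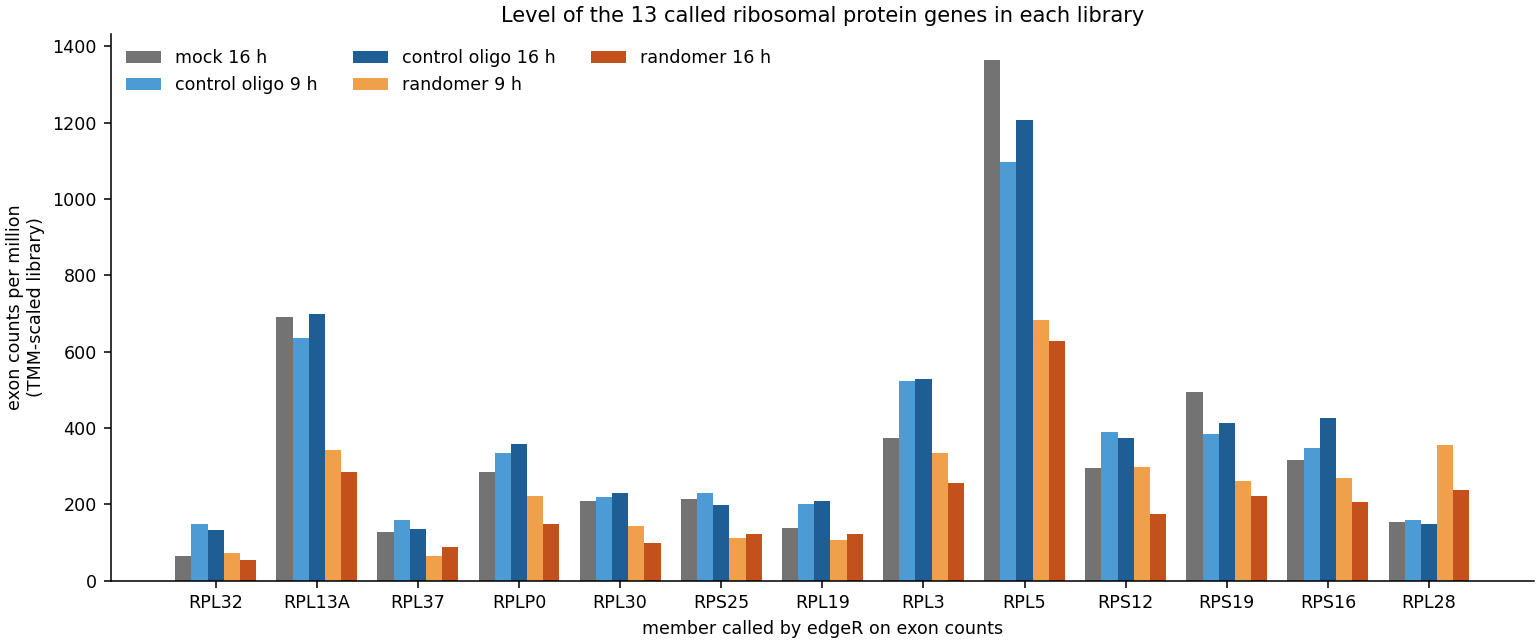
Exon CPM, with TMM-scaled library sizes, of the 13 members called by edgeR in the 5 libraries (bars, 1 library each, no error bars since each group is 1 library). RPL5 is the highest, at 1365 in mock cells against 628 after randomer at 16 h, and RPL28 is the gene whose randomer bars stand above the rest.

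The members with the largest ratios in 1 direction at both times were partly genes with few reads. RPL29 had 119 and 161 raw exon counts after control oligo and 41 and 37 after randomer, but mock cells had 46, and it did not pass (edgeR adjusted p = 0.142). RPS10 had 26 and 6 counts after control oligo and 9 and 0 after randomer. On the high side, RPS27 had 0, 0 and 15 counts in mock and control oligo libraries and 13 and 26 after randomer, and RPL17 had 25, 6, 8, 50 and 13 counts in mock, control oligo and randomer libraries. RPL31 had 63 and 57 counts after control oligo, 67 in mock cells and 126 and 68 after randomer (fitted log2 1.32, edgeR adjusted p = 0.0677). Most of these values rest on few counts, and none of these 5 genes passed the test. RPL7A, RPL4 and RPS6, abundant members with fitted log2 changes of -0.63, -0.65 and -0.54, did not pass either (edgeR adjusted p = 0.059, 0.065 and 0.0698), and nor did RPL38 at 1.07 (0.0805).

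The calls lay mostly among the abundant members. Of the 35 members above the members' median of 227 mean exon counts, 11 fell and 1 rose, with a median fitted log2 change of -0.57. Of the 36 at or below it, 1 fell and none rose, with a median of -0.03. Of all genes tested 3.16% fell and 6.9% rose. Of those averaging 100 counts or more, 7.74% fell and 6.52% rose, so falls were more frequent at depth among all genes too. Across the 71 members the fitted exon change had a Pearson r of -0.47 and a Spearman rho of -0.41 with the log2 mean count, as a description over genes in the same libraries. By subunit, 8 of 44 large-subunit members fell and 1 rose (median -0.20) and 4 of 27 small-subunit members fell (median -0.46). Of a chosen list of 9 genes mutated in Diamond-Blackfan anaemia 8 were tested, and RPS19 and RPL5 fell, beside 3.16% of all genes tested. RPL11, partner of RPL5 in the 5S particle, had 67.2 CPM in mock cells, 65.4 and 75.3 after control oligo and 60.8 and 26.1 after randomer, and did not pass (edgeR adjusted p = 0.294).

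Mock cells gave a second reference at 16 h, with no test. The median member ratio of control oligo over mock was 0.16 (all genes -0.01), and that of randomer over mock was -0.34 (all genes 0.09). Among genes averaging 100 counts or more, the median of randomer over mock was -0.384 for members and -0.188 for all genes. At least 2-fold lower exon counts after randomer than with mock were seen in 11 of 71 members (15.5%), against 14.3% of all genes. At least 2-fold lower counts than after control oligo at 16 h were seen in 18 (25.4%), against 14.4% of all genes. These comparisons share the randomer library at 16 h.

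Intron counts were compared to ask how unspliced or intron-derived RNA of the same genes changed. Most members had more intron counts after randomer, but the rise was smaller than that of the typical gene. The median log2 ratio of the 68 members tested was 0.90 at 9 h and 0.89 at 16 h, while all 11983 genes tested had medians of 1.72 and 2.17. With exon-table library sizes, which keep a general shift between introns and exons, edgeR called 21 members higher (30.9%) and none lower, against 47.6% and 0.0501% of all genes. At an unadjusted edgeR p under 0.05, 25 were higher (53.9% of all genes) and 0 lower (0.108%). In 52 members both randomer libraries lay above the other 3 (76.5%, against 70.3% of all genes), and in RPL28, RPLP1 and RPS14 both lay below (4.41%, against 2.18%). With library sizes from the intron table itself, where the general shift is taken out, 1 member was called higher and 14 lower, against 15.5% and 5.12% of all genes, so the direction for the family rests on the scaling.

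**Figure D3:**
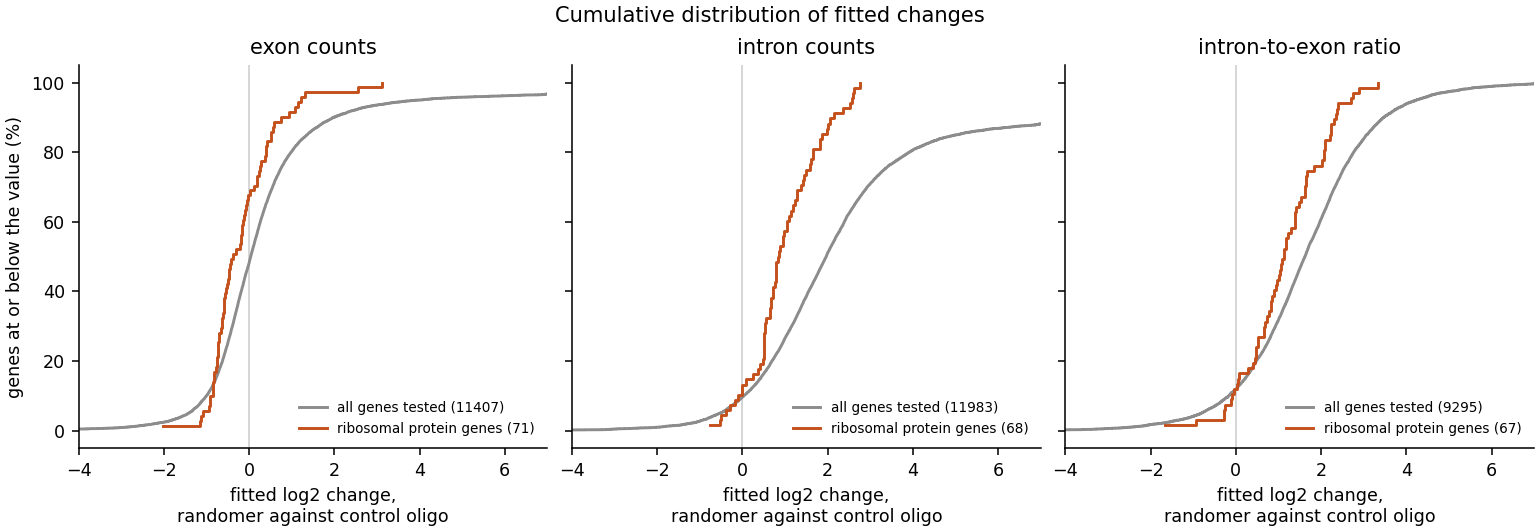
Cumulative share of genes (percent) at or below each fitted log2 change, randomer against control oligo, for exon counts (edgeR), intron counts (edgeR with exon-table library sizes) and the intron-to-exon ratio (limma), for all genes tested (grey) and members (orange); the axis ends at 7 and some genes lie beyond it. The members' curve is left of the curve of all genes at the median in each panel, with medians of -0.37 against 0.04, 0.84 against 1.97 and 1.13 against 1.62.

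RPL27A had the largest called rise in intron counts. It had 45.2 scaled intron CPM in mock cells, 41.0 and 37.5 after control oligo, and 268 and 261 after randomer. The groups were far apart, and the fitted change was 6.73-fold (log2 2.75 ± 0.47 SE, edgeR adjusted p = 8.5e-05), kept in all 9 alternatives. RPS2, a protein of the messenger RNA entry side of the small subunit, had 72.6, 62.4 and 49.2 in mock and control oligo libraries and 294 and 378 after randomer, and rose 6.01-fold (edgeR adjusted p = 0.000125). RPS19 had 312, 259 and 197 against 823 and 1014 and rose 4.04-fold (edgeR adjusted p = 0.000376). RPS29 had 47.3, 31.2 and 46.5 against 258 and 199 and rose 5.93-fold (edgeR adjusted p = 0.000258). In each of these genes both randomer libraries lay above the others.

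RPL24, RPS27, RPS3A, RPS12, RPS20 and RPL3 rose between 3.65-fold and 6.13-fold, with edgeR adjusted p from 0.000429 to 0.00927. RPL24 rested on 9, 20 and 39 raw intron counts in mock and control oligo libraries against 112 and 103 after randomer. RPL3 had 240, 445 and 297 counts against 1041 and 653. The remaining 11 genes called included RPL7, RPL31, RPS7, RPS4X, RPL4, RPL12, RPL5, RPLP2 and RPS3, which rose between 2.21-fold and 3.55-fold. In all 21 called members the randomer libraries lay above the other 3. All but RPL27A lost the call with the intron table's own library sizes. RPL27A, RPL4, RPL5, RPL7, RPL31, RPS29, RPLP2, RPS3A and RPS4X overlap a coding gene on the opposite strand. Of 29 overlapped members tested 9 rose, against 12 of 39 of the others and 47.6% of all genes tested.

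**Figure D4:**
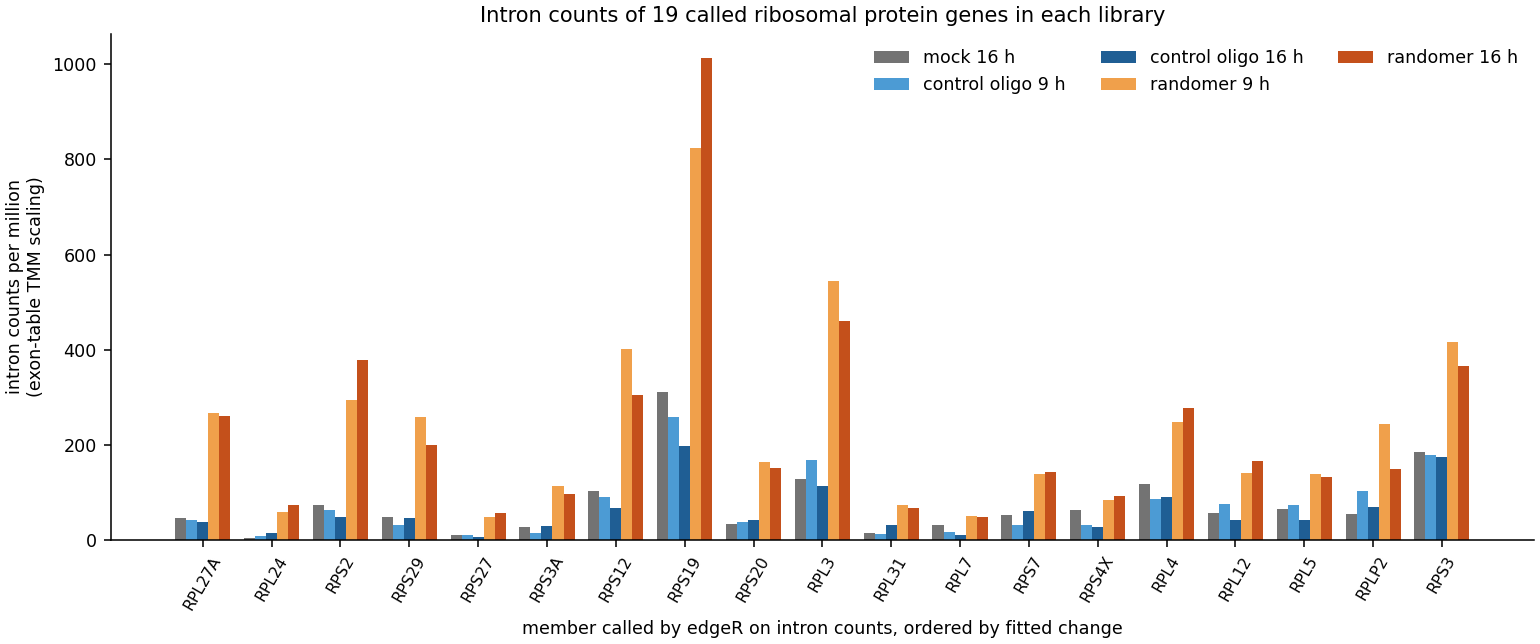
Intron CPM, scaled by exon-table library sizes, of 19 of the 21 members called higher by edgeR, ordered by fitted change (bars, 1 library each, no error bars). RPS19 is the highest, at 823 and 1014 after randomer against 197 to 312 in the other libraries.

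The members with the most intron counts in control cells did not all move alike. RPL7A had 523 intron CPM in mock cells, 403 and 571 after control oligo and 511 and 352 after randomer, and did not pass (edgeR adjusted p = 0.753). RPS14 had 381, 281 and 354 against 246 and 203, below all others, with a fitted log2 change of -0.50 (edgeR adjusted p = 0.343). RPLP1 had 189, 154 and 213 against 149 and 149 (edgeR adjusted p = 0.622). RPS24 had 210, 138 and 201 against 229 and 247 (edgeR adjusted p = 0.338). RPS3 rose 2.21-fold, from 179 and 174 CPM after control oligo to 416 and 366 after randomer, with mock at 185. RPL13A, RPL17, RPL36A and RPS10 had 0 intron counts in every library although their exons had reads. RPL17, RPL36A and RPS10 overlap annotated read-through genes on their own strand.

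The ratio of intron to exon counts is taken within a gene and a library, so that the scaling of exon counts between libraries does not enter it. Summed over the members it was 0.410 in mock cells, 0.358 and 0.340 after control oligo, and 0.818 and 0.994 after randomer. Over all genes it was 0.308, 0.282 and 0.298 against 0.987 and 1.32, so the members stood above the sum of all genes without randomer and below it after randomer. By limma on the log2 ratio with 0.5 added to each count, 20 of 67 members were higher (29.9%) and none lower, against 32.3% and 0.151% of 9295 genes. At an unadjusted limma p under 0.05, 32 were higher (44.3% of all genes) and 0 lower (0.463%). The median fitted change was 1.13, against 1.62 for all genes.

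RPS2 had the largest called change of the ratio, 10.2-fold (log2 3.34 ± 0.44 SE, limma adjusted p = 0.00121). RPS12 followed at 7.43-fold, RPS19 at 6.70-fold and RPL3 at 6.54-fold (limma adjusted p = 0.00123 to 0.00136). RPL7, RPL27A, RPS20, RPS29, RPL4 and RPS4X were between 4.69-fold and 5.27-fold higher, and the other 10 genes called were between 2.64-fold and 4.65-fold higher. RPL3, RPL5, RPS12 and RPS19 both fell in exon counts and rose in intron counts. The share of all genes with both calls was not computed. Taken singly, 3.16% of all genes tested fell in exon counts and 47.6% rose in intron counts. RPL28, whose exon counts rose, had 32, 34 and 43 raw intron counts against 15 and 13 and a fitted log2 ratio change of -1.66, which did not pass (limma adjusted p = 0.245). With the ratios centred in each library on the median of all genes, 0 members were called.

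The snoRNAs inside these genes were examined because reads of a snoRNA lie within the intron of its host. At RPS2 the counts of the embedded snoRNAs equalled 91.9% to 128% of the intron counts in the 5 libraries, and at RPL27A they rose together with them. GENCODE 29 places 57 snoRNAs inside 27 members on the same strand, 52 of which have a row in the exon table, 2 of them under an older symbol. Of 38 tested, 12 were higher and none lower by edgeR, with a median fitted log2 change of 1.94. Of all 146 SNORA and SNORD genes tested, 46 were higher and 1 lower, with a median of 1.44. Of those with the most counts, 3 are shown, a pair that rose with the host and 1 that did not rise, 5′ to 3′ from GENCODE 29 (GRCh38). Capitals mark the ACA box of the H/ACA type and the TGATG of the C box and CTGA of the D box of the C/D type.
SNORA64: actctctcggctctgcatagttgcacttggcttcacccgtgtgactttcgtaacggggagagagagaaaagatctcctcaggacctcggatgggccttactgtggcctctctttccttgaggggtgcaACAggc
SNORA3A: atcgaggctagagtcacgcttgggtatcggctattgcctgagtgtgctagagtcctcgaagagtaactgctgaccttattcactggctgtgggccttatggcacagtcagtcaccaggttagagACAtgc
SNORD36C: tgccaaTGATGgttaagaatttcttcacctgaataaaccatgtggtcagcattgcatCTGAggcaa
All lie between exons of their hosts: SNORA64 in RPS2 at chr16:1962973-1963106 (minus strand), SNORA3A in RPL27A at chr11:8684227-8684356 (plus strand) and SNORD36C in RPL7A at chr9:133350847-133350912 (plus strand).

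SNORA64 had 124 raw counts in mock cells, 176 and 166 after control oligo and 577 and 509 after randomer, while the introns of RPS2 had 135, 166 and 130 against 562 and 536. Both series were low in the 3 libraries without randomer and high with it, and SNORA64 rose 5.11-fold (edgeR adjusted p = 1.29e-11). SNORA3A, listed in the table as SNORA3, had 29, 35 and 47 counts against 322 and 237, and the introns of RPL27A had 84, 109 and 99 against 511 and 369. SNORA3A rose 10.9-fold (edgeR adjusted p = 9.92e-13). The sum of the snoRNAs inside RPL27A equalled 32.1% to 53.5% of its intron counts without randomer and 64.4% and 70.5% with it. At RPL7A the introns had 972, 1073 and 1509 counts against 976 and 499, and SNORD36C had 598, 523 and 833 against 322 and 218. SNORD36C had a fitted log2 change of -0.63, short of the threshold (edgeR adjusted p = 0.128), and its randomer libraries lay below the others.

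SNORA70, inside RPL10, had 94, 197 and 201 counts against 107 and 103 (fitted log2 -0.23, edgeR adjusted p = 0.808). SNORD83B in RPL3 had 37, 43 and 9 counts against 169 and 171 and rose 12.1-fold (edgeR adjusted p = 9.73e-09), while the snoRNAs of RPL3 together equalled 15.5% to 25.8% of its intron counts without randomer and 29.3% and 44.1% with it. At RPS12 the snoRNAs had 107 and 109 counts after randomer beside 765 and 433 in the introns, or 14.0% and 25.2% of them. RPL13A had 0 intron counts, yet its snoRNA SNORD33 had 21, 30 and 9 counts against 117 and 154 and rose 11.9-fold (edgeR adjusted p = 1.24e-07). The assignment of reads that lie both in a snoRNA and in a host intron was not given in the sources used here.

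**Figure D5:**
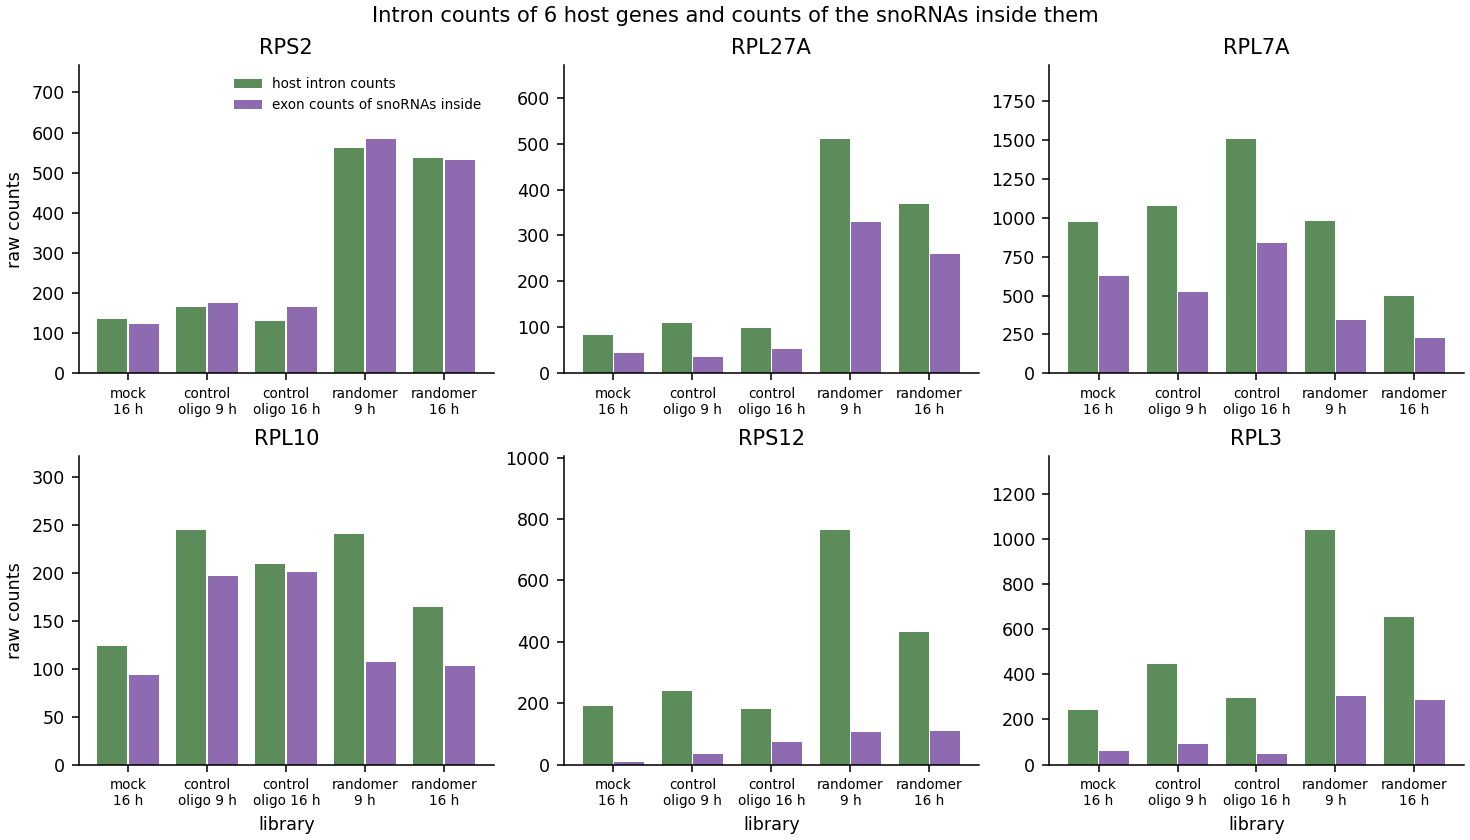
Raw intron counts of 6 host genes (green) and summed raw exon counts of the snoRNAs annotated inside them (violet) in the 5 libraries, 1 library per bar. The pairs at RPS2 are nearly equal in height in all libraries, while at RPS12 the snoRNAs reach 107 and 109 counts after randomer beside 765 and 433 intron counts.

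Members with and without a snoRNA inside were set side by side. Of 24 hosts tested 13 rose in intron counts (54.2%), with a median fitted log2 change of 1.16. Of 44 members without a snoRNA 8 rose (18.2%), with a median of 0.77. All genes tested stood at 47.6% with a median of 1.97, so the hosts' share lay near that of all genes and their median below it. RPS19, RPS29, RPL24 and RPS27 were among the 8 without one. In exon counts 7 of 25 hosts fell (28.0%, median -0.58) and 5 of 46 of the others (10.9%, median -0.20), beside 3.16% of all genes. Intron calls were 7 of 12 for hosts of an H/ACA snoRNA and 6 of 12 for hosts of C/D snoRNAs only. The difference between hosts and other members was not tested.

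Ribosomal proteins and relatives outside the naming rule were few and varied. RPSA, the small-subunit protein also known as the laminin receptor, had 1308 raw exon counts in mock cells, 1318 and 1641 after control oligo and 662 and 457 after randomer, and fell 1.66-fold (edgeR adjusted p = 0.019). GNB2L1, now called RACK1 and a scaffold on the small subunit, had 1737, 2657 and 2467 counts against 1272 and 669 and fell 1.72-fold (edgeR adjusted p = 0.00382). RPL3L, the muscle paralog of RPL3, had 0, 0 and 1 counts against 26 and 38 and was called higher (edgeR adjusted p = 0.00993). FAU, whose protein is made as a fusion, did not pass (edgeR adjusted p = 0.844). In all, 2 of the 10 tested fell and 1 rose, beside 3.16% and 6.9% of all genes tested.

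Of 17 other genes whose messenger RNAs begin with the pyrimidine motif, 2 fell and 1 rose, with a median fitted log2 change of -0.24. EEF1A1, the elongation factor that delivers aminoacyl-tRNA, fell 1.79-fold (edgeR adjusted p = 0.000257) and BTF3, a subunit of the nascent polypeptide complex, fell 1.64-fold (0.0456). TPT1, the translationally controlled tumour protein, rose 1.70-fold (edgeR adjusted p = 0.0309). Of 34 ribosome biogenesis genes 2 fell and none rose, with a median of -0.19: FBL, the methyltransferase of C/D snoRNA particles, fell 2.51-fold (edgeR adjusted p = 8.18e-05) and NCL, the nucleolar protein nucleolin, fell 2.06-fold (1.09e-08). A further list of 10 genes held regulators of ribosomal protein synthesis and also MDM2, which is not such a regulator. Of these 10 genes 2 rose and none fell, with a median of 0.41. MYC, which activates ribosomal protein genes, rose 2.58-fold (edgeR adjusted p = 0.000111) and MDM2, the p53 regulator bound by RPL5 and RPL11, rose 2.10-fold (1.51e-05), whereas LARP1 and MTOR did not pass (0.691 and 0.883). Of all genes tested 3.16% fell and 6.9% rose, with a median of 0.04. Of those averaging 100 counts or more, 7.74% fell and 6.52% rose.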

How the data were processed

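Per the labels, ribosomal RNA was depleted from total RNA before fragmentation, cDNA synthesis, PCR and sequencing. The authors deposited raw counts per gene symbol, in a table for exons and a table for introns; per the submitters' processing notes TopHat2 and HTSeq were used with the build hg19, in versions not given there. Strandedness, annotation and the handling of reads with several positions were not given in the sources used here. Rows whose symbols had become dates (28 per table, 0.153% to 0.289% of counts) were left out.

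Exon and intron counts were tested with edgeR 4.0.16 (quasi-likelihood, R 4.3.3) and their log2 ratio (0.5 added) with limma 3.58.1, trend on the smaller mean count, over the 4 oligo libraries with time as a term, leaving 1 residual degree of freedom. Genes needed 10 counts in 2 libraries. TMM library sizes of the exon table served both tables, and p-values were adjusted by Benjamini-Hochberg over all genes at 0.05. Ratios at 1 time were not tested. The text gives the range of library totals, which limit the precision of each value. DESeq2 1.42.0, other scalings and filters were alternatives. On simulated counts, drawn independently with a common dispersion and few changed genes, the tests made few false calls and missed most of the changed genes. Such counts hold no differences between single libraries apart from the set changes, so they cannot show how many calls in these data are false. GENCODE 29 and RefSeq (GRCh38) gave snoRNAs, overlaps, lengths and starts, a build other than that of the counts.

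The members, lists and tests were chosen with earlier results of these data known. Members named with values were those called (the 10 largest changes of each test), those with the largest ratio in 1 direction at both times, the highest and lowest levels per length, the highest intron counts, the stalk proteins and the snoRNAs with the most counts. RPL11, RPL7A, RPL4, RPS6, RPL38, SNORD83B, SNORD33, FAU, LARP1 and MTOR were added after their values were seen. Some genes that these rules name are not reported here.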

Additional observations from a re-analysis of the deposited data

Results flagged for a closer look

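In 9 members the randomer over control oligo log2 ratio had opposite signs at 9 h and 16 h, with the 95% counting interval of each off 0. These intervals cover counting error only, and the share of all genes with such a reversal was not computed. The difference between times was not tested, since each group is 1 library. In exon counts, the ratio was above 0 at 9 h and below it at 16 h in all 7 of the genes concerned. The median of the 71 members tested was also lower at 16 h (-0.50) than at 9 h (-0.16). RPL14 stood at 1.76 at 9 h and -1.40 at 16 h, with control oligo libraries at 26 and 110 raw counts and randomer libraries at 64 and 22. RPS21 stood at 0.61 and -1.30. RPS29 stood at 0.88 and -0.36, RPL35A at 0.70 and -0.36, and RPLP2 at 0.56 and -0.34. RPL34 stood at 0.29 and -0.50, and RPL8 at 0.17 and -0.50.

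In intron counts, RPL41 stood at -1.84 at 9 h and 1.77 at 16 h, with 117 and 50 raw counts in the control oligo libraries and 23 and 92 in the randomer libraries. RPL7A, a host of 4 annotated snoRNAs, stood at 0.34 and -0.70.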

How the results depend on the processing

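Leaving out a library was not run: with the time term it leaves no residual degree of freedom. No replicate number pairs the libraries, since each group holds 1; the time term pairs randomer with control oligo at each time. The 12 falls in exon counts became 6 with DESeq2 size factors in edgeR, 7 with library totals, 7 with mock added as a control, 3 with counts divided by 8 and 2 without the time term, which also left 0 of the 1 rise. The 21 rises in intron counts became 32 with the DESeq2 test and 8 among members with no snoRNA inside. With the intron table's own TMM there was 1 rise and 14 falls, and the median intron log2 ratios reversed to -0.53 at 9 h and -0.97 at 16 h. Single genes named here that reversed under that scaling were RPL12 (-0.20), RPL4 (-0.057), RPL5 (-0.36), RPLP2 (-0.46), RPS3 (-0.50) and RPS4X (-0.039). The 20 rises in the ratio became 0 when centred on each library's median, which reversed RPL19 (-0.16) and RPL23A (-0.082), and 0 with no low-count filter. Without it genes with 1 count enter, and the cause of the loss was not tested. Exon medians stayed below 0 under all alternatives, from -0.17 to -0.09 at 9 h and from -0.58 to -0.34 at 16 h. The restriction to genes averaging 100 counts or more was chosen after seeing the data.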
